A study of Mus musculus with 4 samples.

Results

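Btg1 and Btg2 are a pair of related antiproliferative genes, and 9 intervals of changed chromatin accessibility lie nearest to their transcription start sites (TSSs). These 9 were taken from the 3812 intervals that the authors listed as differing in ATAC-seq between RAW macrophages treated with methyl-β-cyclodextrin (MCD) and untreated ones. Each interval went to the gene whose TSS was closest, among GENCODE M21 transcripts with an Entrez identifier. This gave 7 intervals to Btg1 and 2 to Btg2. The intervals were therefore chosen by the accessibility difference itself, since the authors listed only those that passed their test, and the differences below are a description that carries no test. In ATAC-seq, a transposase (Tn5) cuts DNA where chromatin is open, and a higher number of reads at a place stands for higher accessibility. RAW macrophages, a transformed mouse cell line, were kept in DMEM with FCS. They were left without treatment (control, 2 samples) or received 5 mM MCD with BSA for 1 hr (2 samples), and 50000 cells were used per sample. The paper's general methods describe a medium with BSA for MCD and also for a water control. Whether the untreated ATAC-seq samples were in that medium is not stated. MCD is a ring-shaped sugar that takes cholesterol out of membranes. The values used here are the authors' mean normalized reads of each condition. No value per sample was used, so that the spread between the 2 samples of a condition is unknown. The paper states a common sequencing coverage for the libraries, but the depth that each sample reached is unknown. In such a mixture of cells, a site open in more cells and a site cut more often in each cell cannot be told apart. The line's label as macrophages could not be checked, since its marker genes enter here only through intervals that changed. Such an interval was assigned to 4 of 8 macrophage markers, 1 of 4 T cell markers, 0 of 3 B cell markers and 0 of 3 fibroblast markers. Among all genes with an Entrez TSS the share was 11.5%. Of the 6 macrophage marker intervals, 2 had more reads after MCD and 4 had fewer, as did the T cell one. Expression of Btg1 and Btg2 was not analysed here.

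Proteins of the BTG/TOB family slow cell division. They share a conserved domain through which they bind the CAF1 subunits of the CCR4-NOT complex, which shortens the poly(A) tails of mRNAs, and they also bind the arginine methyltransferase Prmt1. Btg1 is known as a gene of quiescent lymphoid and myeloid cells and as a target of FOXO factors. Btg2, also called Tis21 or Pc3, is an immediate early gene induced by growth factors and stress, and a target of p53.

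Btg1 (ENSMUSG00000036478.8) lies on the plus strand of chromosome 10 of GRCm38, from 96617006 to 96622809, with 2 exons in each of its 2 transcripts. Btg2 (ENSMUSG00000020423.6) is transcribed from the minus strand (chromosome 1, 134075170 to 134079120) and also has 2 exons. All 9 intervals are 201 bp wide. The sequences of 5 gained intervals follow, where gained means more reads after MCD. Of them, 3 are the Btg1 intervals that hold an AP-1 consensus, and the others are both intervals of Btg2, which hold none of the 12 consensus motifs searched. They are read 5′ to 3′ on the plus strand of GRCm38, and capitals mark matches to TGANTCA, the AP-1 consensus. The reference strain is C57BL/6J, and the bases of the RAW line itself were not read.

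Btg1, 10881 bp downstream, chr10:96628435-96628635: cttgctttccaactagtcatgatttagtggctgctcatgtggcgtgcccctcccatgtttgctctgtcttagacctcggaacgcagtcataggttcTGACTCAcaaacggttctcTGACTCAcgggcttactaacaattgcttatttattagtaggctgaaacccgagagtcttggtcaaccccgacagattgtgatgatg

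Btg1, 268 kb upstream, chr10:96349107-96349307: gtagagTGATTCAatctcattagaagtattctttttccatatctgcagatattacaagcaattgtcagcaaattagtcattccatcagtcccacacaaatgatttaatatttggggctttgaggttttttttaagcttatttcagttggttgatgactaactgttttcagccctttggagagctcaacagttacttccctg

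Btg1, 291 kb upstream, chr10:96325501-96325701: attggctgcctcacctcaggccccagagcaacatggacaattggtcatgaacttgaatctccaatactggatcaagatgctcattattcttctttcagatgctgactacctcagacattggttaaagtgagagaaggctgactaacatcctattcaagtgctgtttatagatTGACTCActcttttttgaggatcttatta

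Btg2, 4083 bp upstream, chr1:134083203-134083403: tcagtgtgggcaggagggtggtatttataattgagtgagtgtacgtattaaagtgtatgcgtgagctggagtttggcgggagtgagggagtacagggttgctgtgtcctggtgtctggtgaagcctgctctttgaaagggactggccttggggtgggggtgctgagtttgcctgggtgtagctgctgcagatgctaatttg

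Btg2, 4485 bp downstream, chr1:134074435-134074635: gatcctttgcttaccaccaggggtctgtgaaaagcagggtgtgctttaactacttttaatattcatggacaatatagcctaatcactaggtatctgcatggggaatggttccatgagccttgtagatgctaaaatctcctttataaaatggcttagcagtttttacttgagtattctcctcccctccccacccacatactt

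Both Btg2 intervals had more reads after MCD. The interval 4083 bp upstream of the TSS had 43.5 mean normalized reads in control and 112 after MCD, a 2.57-fold increase (difference of 1.36 on the log2 scale). The interval 4485 bp downstream of the TSS had 32.3 in control and 83.8 after MCD, a 2.60-fold increase (log2 difference of 1.38). The differences at these flanking sites were thus nearly equal, although the control level was lower at the downstream one. The downstream interval lies 535 bp past the annotated 3′ end of Btg2, so that the pair brackets the whole gene body with 8568 bp between the intervals. Both are intergenic, and the TSS next in distance was that of Chit1, at 27839 bp from the upstream and 36607 bp from the downstream interval.

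Btg1 had 5 gained and 2 lost intervals, at 3 places far from each other. Near the gene itself, 2 intervals were gained. The interval 10881 bp downstream of the TSS had 41.1 mean normalized reads in control and 138 after MCD, a 3.36-fold increase (log2 difference of 1.75). It is intergenic and lies 5626 bp past the 3′ end of the gene. The other, from 96620932 to 96621132, lies 3378 bp downstream of the nearer TSS, inside exon 2 and its 3′ UTR (96618641 to 96622809). It had 89.9 mean normalized reads in control, the highest control level of the 9 intervals, and 150 after MCD. This 1.67-fold increase (log2 difference of 0.74) was the smallest of the 7 gained ones. Mouse carries copies of Btg1 on chromosome X, named Btg1b and Btg1c. The best ungapped match of this interval within either of them held 76 of 201 bases (37.8%). A gap would break such a match, and whether reads could also align to the copies was not tested.

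Another 3 gained intervals lie 268 to 338 kb upstream of Btg1. At 268 kb, the authors' mean normalized reads were 27.7 in control and 157 after MCD. That 5.66-fold increase (log2 difference of 2.50) went from the lowest control level of the 9 intervals to the highest level after MCD. At 291 kb the values were 37.8 and 87.3, a 2.31-fold increase (log2 difference of 1.21). At 338 kb, from 96279171 to 96279371, they were 67.1 and 145, a 2.16-fold increase (log2 difference of 1.11). The intervals at 268 and 291 kb lie in an intron of Gm33782, a long noncoding RNA gene with no Entrez identifier in the annotation, and the one at 338 kb is intergenic. They are 23406 and 46130 bp apart.

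Another group, 284 and 292 kb downstream of Btg1, had fewer reads after MCD. The interval from 96901182 to 96901382 fell from 85.6 mean normalized reads in control to 38.0 after MCD, which is 2.25-fold lower (log2 difference of -1.17). It is intergenic and holds a run of 28 identical bases, and 3 of the 3812 listed intervals (0.0787%) hold a run of at least that length. The interval from 96909959 to 96910159 fell from 81.1 to 41.6 reads, which is 1.95-fold lower (log2 difference of -0.96). It lies in an intron of the noncoding gene Gm33981, 8577 bp from the first. Control levels of the lost pair were higher than those of 6 of the 7 gained intervals, the exception being the interval in the Btg1 3′ UTR.

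**Figure D1:**
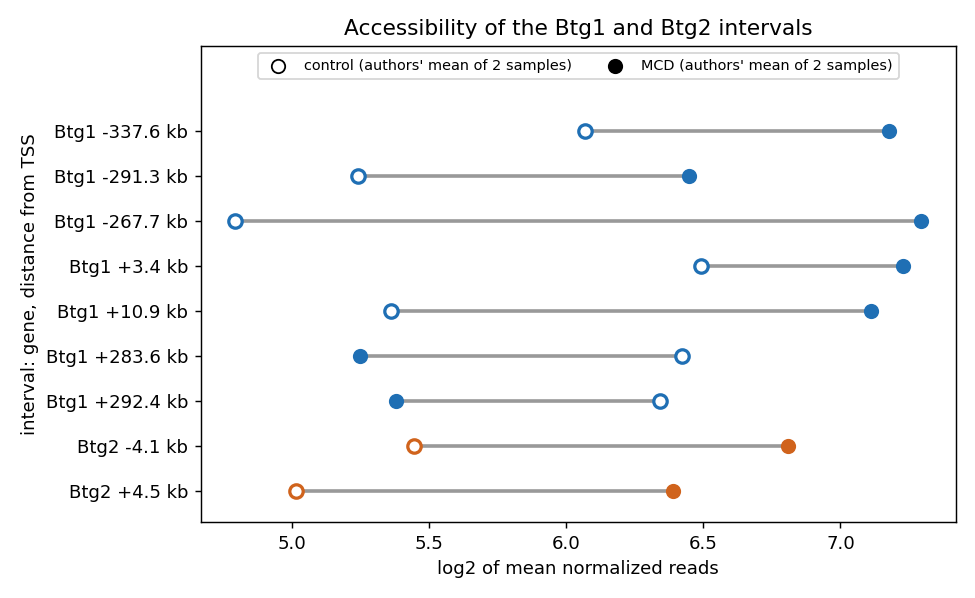
Mean normalized reads on the log2 scale (x axis) for the 9 intervals (y axis, named by gene and distance from the TSS in kb, with + for downstream). Open circles are the authors' control means and filled circles their means after MCD, each over 2 samples with no error available. The 7 gained intervals move to the right and end between 83.8 and 157 reads, and the 2 lost ones move to the left.

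**Figure D2:**
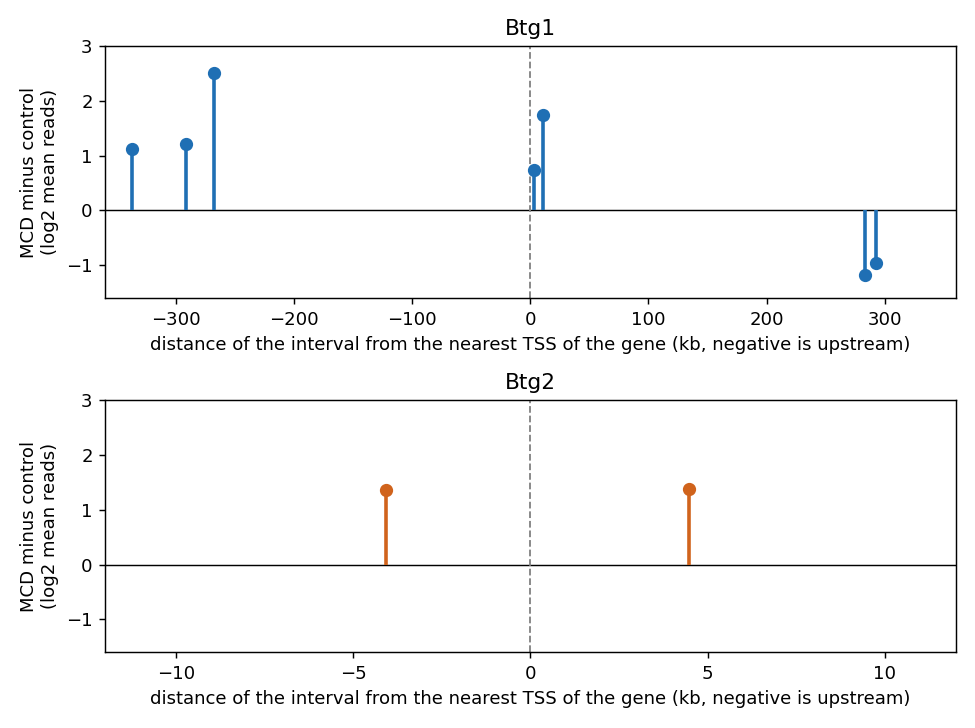
Difference between the authors' MCD and control means on the log2 scale (y axis) against the distance of each interval from the nearest TSS of its gene in kb (x axis, negative is upstream, and the scale differs between panels). Btg1 has gained intervals far upstream and near the gene and lost ones far downstream, and the Btg2 pair flanks its gene at 4083 and 4485 bp.

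Of the 3812 listed intervals, 2790 were gained (73.2%), and 7 of the 9 assigned to Btg1 and Btg2 were, a share close to that of the table. A gain of at least 1 on the log2 scale, or 2-fold, was reached by 57.3% of the listed intervals and by 6 of the 9. The median log2 difference, over gained and lost intervals together, was 1.11 for the 7 Btg1 intervals, beside 1.14 for all listed ones. For the 2 Btg2 intervals, both gained, it was 1.37, beside 1.39 for all gained ones. Among the 2790 gained intervals, that at 268 kb ranked 114, so that 95.9% of them had a smaller difference. The one 10881 bp downstream of Btg1 exceeded 72.3% of them. Both Btg2 intervals stood near the middle, above 48.6% and 47.4%. The interval in the Btg1 3′ UTR exceeded 5.91%. Control levels over gained intervals had a median of 29.2 reads, and 6 of the 7 gained intervals were above it. After MCD all 7 were above the median of 78.6.

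**Figure D3:**
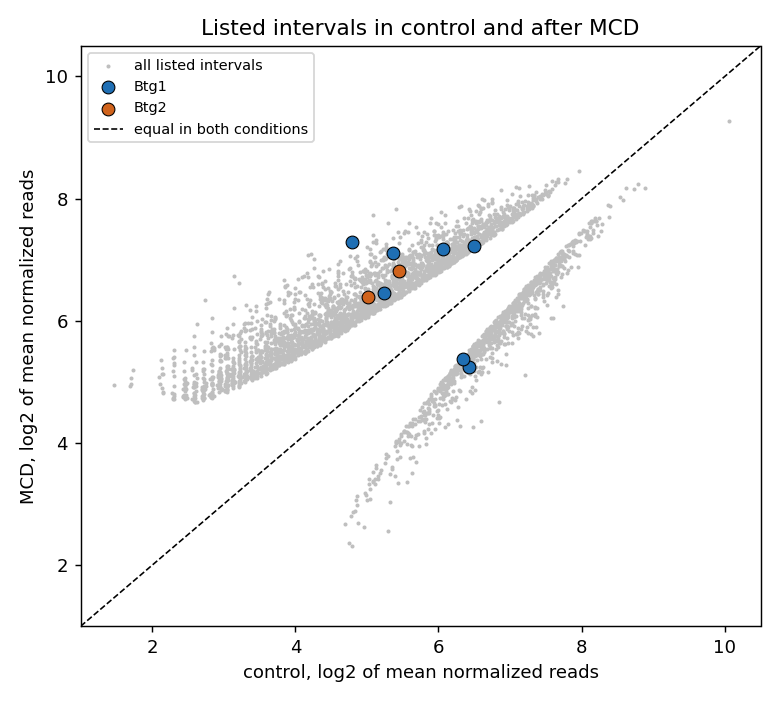
Control (x axis) and MCD (y axis) means, both as log2 of mean normalized reads, for all 3812 listed intervals (grey), with Btg1 in blue and Btg2 in orange. The dashed line marks equal values, and the band around it is empty because intervals that did not pass the authors' test were not listed. The 268 kb interval of Btg1 stands highest above the line among the 9.

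The study set promoters at up to 3 kb from a TSS, and 0 of the 9 intervals fell in that range. Most listed intervals lay outside it too, with a lower quartile of distance of 5010 bp and a median of 14801 bp. A count of 0 among so few intervals is therefore not a trait of these genes. The nearest were the interval in the Btg1 3′ UTR at 3378 bp and both Btg2 intervals, and between 3 and 5 kb lay 305 of all listed intervals (8.0%). At least 2 gained intervals within 5 kb of the TSS were found for 52 genes, Btg2 among them. Over 250 kb from the nearest TSS lay 97 listed intervals (2.54%), and 5 of these were intervals of Btg1. Btg1 stands in a stretch poor in genes with an Entrez identifier. The next such TSS is 676 kb away on the upstream side (Eea1, an early endosome protein) and 862 kb away on the downstream side (Dcn, the proteoglycan decorin). Btg2 has Fmod at 41.6 kb and Chit1 at 32.1 kb.

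The number of intervals a gene receives depends on the stretch of genome over which its TSS is the nearest. For Btg1 this stretch was 770 kb, which gives 9.09 listed intervals per Mb, and for Btg2 it was 36.9 kb, which gives 54.2 per Mb. The whole table has 1.40 per Mb. Both genes were chosen for having listed intervals, so these densities and the shares that follow describe them and test nothing. Of 209 genes with a stretch within 10% of that of Btg1, itself included, 3 (1.44%) had at least 7 intervals, and the median gene had 0. Of 1379 genes with a stretch within 10% of that of Btg2, 18 (1.31%) had at least 2. Among the 2582 genes with a listed interval, which are 11.5% of the 22421 genes with an Entrez TSS, 22 had at least 7 and 701 at least 2.

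**Figure D4:**
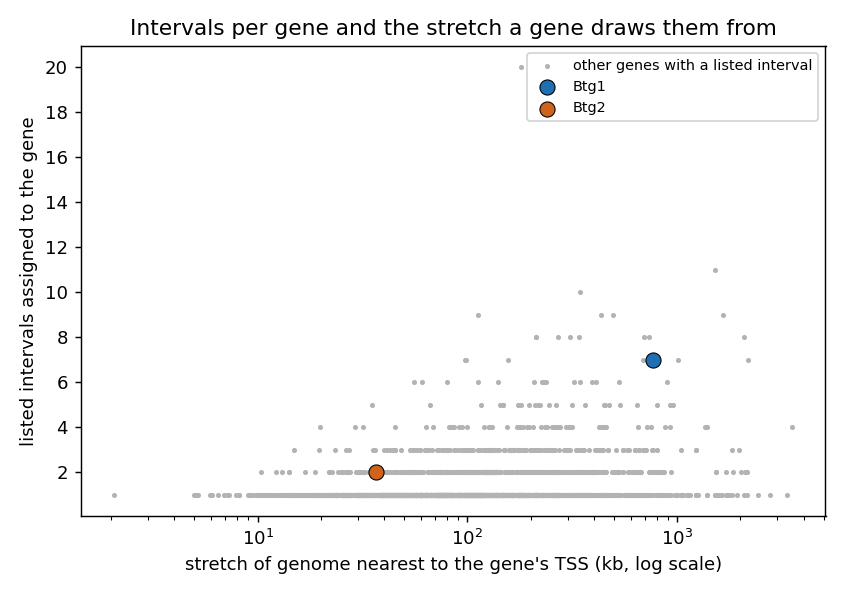
Number of listed intervals assigned to a gene (y axis) against the stretch of genome nearest to its TSS in kb (x axis, log scale), for genes with at least 1 interval. Btg1 (blue) has 7 intervals over 770 kb, and Btg2 (orange) has 2 over 36.9 kb. Both were chosen for having listed intervals.

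The assignment of the far intervals is the least certain. The interval at 338 kb was 337635 bp from Btg1 and 338414 bp from Eea1, so that the distances to these genes differed little. Just outside, the next interval towards Eea1 (96274110 to 96274310) was 342696 bp from Btg1 and 333353 bp from Eea1, and fell from 246 to 118 mean normalized reads (log2 difference of -1.06). On the downstream side the next listed interval was 1890957 bp from Btg1. When TSSs of all annotated transcripts were used, noncoding genes were nearer to each of the 5 far intervals, with Gm48428 at 3283 bp from the one at 268 kb, and 2 intervals remained with Btg1. Among protein-coding genes alone, the TSS of Gm5426 was nearer than that of Btg1 to the 3 upstream intervals, at 142568, 188898 and 212504 bp from those at 338, 291 and 268 kb, so that Btg1 kept 2 gained and both lost intervals. Around Btg2, the listed intervals next outside were 222630 and 434666 bp from its TSS.

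The intervals were searched on both strands for 12 consensus motifs. AP-1, the site of Jun and Fos dimers, was searched as TGANTCA and was found in 3 of the 5 gained Btg1 intervals, in 0 of the 2 lost ones and in 0 of the 2 of Btg2. Over the table it was present in 39.6% of listed, 52.8% of gained and 3.33% of lost intervals. The interval 10881 bp downstream of Btg1 holds TGACTCA 2 times on the plus strand, 19 bp apart from start to start (96628531 and 96628550). The first is centred 1 bp from the middle of the interval and the second 18 bp. At least 2 AP-1 matches were present in 408 of the gained intervals (14.6%). In the remaining 2 intervals the match was near an edge, 75 bp from the middle at 291 kb (TGACTCA) and 91 bp at 268 kb (TGATTCA). With only the bases within 50 bp of the middle searched, 1 Btg1 interval held a match, against 26.4% of listed intervals. Among all gained intervals, the median log2 difference was 1.38 with an AP-1 match and 1.41 without.

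The interval 338 kb upstream of Btg1 holds no AP-1 match. It does hold a C/EBP match (TTGCNNAA, in 12.3% of listed intervals) and a match to the core of the ISRE, the interferon response element (in 2.65%). These were searched in the same way as the CRE (TGACGTCA, in 1.08%), the κB site (in 7.03%), the PU box (GAGGAAGT, in 7.69%), the CArG box (in 1.15%), the p53 decamer (in 6.14%), FOXO (GTAAACA, in 2.07%), ETS (CCGGAAG, in 1.42%), EGR (GCGNGGGCG, in 1.29%) and the GC box (GGGCGGG, in 4.38%). None of the latter 9 was found in any of the 9 intervals. No match to any of the 12 was found in both Btg2 intervals, both lost Btg1 intervals and the one in the Btg1 3′ UTR, which makes 5 of 9. Over all listed intervals, 27.4% of the gained and 54.9% of the lost held none. A match says only that these letters are present. The ISRE match at 338 kb overlaps the end of a run of 16 identical bases. A run of at least that length is held by 41 listed intervals (1.08%).

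The promoters of the genes, which hold no listed interval, are given for comparison from the RefSeq table of GRCm38.p6, from 250 bases before to 50 bases after the start. The nearest listed interval was 3882 bp from the promoter of Btg1 and 3798 bp from that of Btg2. Neither promoter holds an AP-1 consensus, which 7.81% of the 32851 promoters in the table do, or a κB consensus, which 4.51% do. The Btg2 promoter, with 72.0% G and C, holds the full CRE palindrome, present in 1.79% of promoters, as well as an EGR match (5.55%). It also holds 2 GC boxes, and 25.6% of promoters hold at least 1. The Btg1 promoter, with 64.7% G and C, holds a FOXO match on the minus strand, present in 3.65% of promoters, and 1 GC box. The matches to CRE and FOXO are shown on the strand of each gene, since they are the least frequent among all promoters of the matches found here, with the match in capitals.

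Btg2 CRE, chr1:134079303-134079332: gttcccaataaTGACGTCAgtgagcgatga

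Btg1 FOXO, chr10:96616786-96616815: gggggtttattTGTTTACaagcagattacg

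The G and C share of the 9 intervals ran from 35.8% to 52.7%, beside a median of 47.8% over all listed intervals. The lowest value was at 268 kb and the highest in the upstream interval of Btg2.

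Listed intervals were also counted for the other members of the family and their partners. Of the 6 family genes (Btg1, Btg2, Btg3, Btg4, Tob1 and Tob2), Btg1 and Btg2 alone had one. Of 15 genes of the CCR4-NOT deadenylase, the Pan2-Pan3 deadenylase and poly(A) binding, 1 had an interval, and Prmt1 had 0. This was Pan3, a subunit that brings the Pan2 nuclease to poly(A) tails, with an intronic interval 3052 bp downstream of a TSS. It fell from 132 mean normalized reads to 68.8 (log2 difference of -0.94). Without Btg1 and Btg2, which were chosen for having intervals, 1 of the 20 genes of the family and its partners (5%) had a listed interval, and 0 of the 4 other family genes did. Over all genes with an Entrez TSS the share was 11.5%, and lists of this size were not tested against it.

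Of 35 genes of growth arrest and cell cycle entry, 11 (31.4%) had a listed interval, beside 11.5% of all genes. Of these 11, 8 had a gained one and 5 a lost one. The difference in share was not tested, and the stretches of genome from which these genes draw intervals were not compared with those of all genes. Among all 22421 genes with an Entrez TSS, 1932 had a gained interval and 833 a lost one. Cdkn1a, the p21 inhibitor of cyclin-dependent kinases and a p53 target like Btg2, had 1 gained interval 22803 bp upstream, with 46.0 reads in control and 93.9 after MCD (log2 difference of 1.03). Gadd45a, a growth arrest gene induced by DNA damage, had 2 gained intervals, with log2 differences of 1.55 at 3622 bp and 1.08 at 44131 bp upstream. The first of these, at 41.0 and 120 reads, resembled those of Btg2 in distance, level and size. Genes that drive the cycle had gained intervals too. Cdk6, a kinase of the G1 phase, had 4 gained intervals with log2 differences from 1.31 to 1.93, and Myc had 3 from 1.34 to 1.70. Klf6 had 2 (0.94 and 0.89) and Plk2 had 1 (0.75). Intervals of Ccnd1 (cyclin D1) were lost, with log2 differences of -1.41 and -1.04, and so were 1 of Foxo3 (-1.31), a FOXO factor, and 1 of Sesn1 (-0.91), a p53 target. Ccnd2 (cyclin D2), with 2 gained and 1 lost, and Klf4, with 2 gained and 6 lost, had both directions as Btg1 did. Some of these intervals lie far from the TSS, where the assignment is less certain. The Plk2 interval lies at 400483 bp and those of Myc at 41134 to 466029 bp. Those of Klf4 lie at 100633 to 291643 bp and those of Ccnd1 at 107893 and 110949 bp. The intervals of Cdk6 and Sesn1 lie within 50779 bp. Of the 28 intervals of this list, 17 were gained and 11 lost, and 6 of the lost ones were of Klf4. Over all 28 the median log2 difference was 0.95, beside 1.14 over all listed intervals. Both medians pool gained and lost intervals and so depend on the share lost.

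Genes with a similar pattern were sought by the numbers of gained and lost intervals and then by the median log2 difference over a gene's intervals. For Btg1, 0 of the 6 other genes with 7 intervals had 5 gained and 2 lost. For Btg2, 259 other genes had 2 gained and 0 lost intervals, and the closest medians were those of Traf1 (1.37), Flnc (1.37) and Atp9b (1.37), beside 1.37 for Btg2. Of these, Flnc has both intervals within 3375 bp of its TSS, and Traf1, an adaptor of TNF receptors, has 1 over its TSS. In Atp9b, a phospholipid flippase gene, the 2 differences were 1.33 and 1.40, and in Btg2 they were 1.38 and 1.36. Both intervals of Flnc and of Atp9b, 1 of Traf1 and 0 of Btg2 hold an AP-1 match.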

How the data were processed

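ATAC-seq was performed on 4 samples of RAW macrophages, 2 untreated and 2 treated with MCD, grouped by the sample titles. Per the paper's methods, alignment was to GRCm38 (Bowtie2), duplicates were taken out (Picard), MACS2 called the peaks, and the authors contrasted MCD with control in Diffbind, with DESeq2 and EdgeR. The submitters' processing notes name Bowtie2 2.4.4, cutadapt 2.6, MACS3 3.0.0 and deepTools 3.5.1, so the sources differ on the peak caller. The normalization, the Tn5 offset and whether peaks were called per sample are not given in the sources used here. The deposited table holds log2 mean normalized reads per condition, taken here as the authors' means. Its log2 fold, p-value and FDR columns (3 columns of the authors' comparison) were deposited for the listed intervals and were not used. Another normalization could change the size or sign of a difference and could not be tried.

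Reads were taken as 2 to the power of the log2 mean, and differences are MCD minus control. Start and end were read as 1-based (width 201). Distances run from the interval's edge to the nearest TSS, and side follows the gene's strand. Sequences were read from GRCm38.p6 with pysam 0.24.0, and motifs were exact matches on both strands. Python 3.11.15, numpy 2.4.6 and pandas 2.3.3 were used. The assignment and the motif search were tested on simulated data and recovered every planted answer. The test planned on values per sample was not run, since the table has means.

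The members, gene lists and motifs were chosen with earlier results of these data known. The genes named are Btg1 and Btg2, every member of the family and growth arrest lists with an interval, the 3 genes of the most similar pattern (found for Btg2 only), and the neighbouring genes. Gm33782, Gm33981, Gm48428 and Gm5426 were named as genes at the intervals or on either side.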

Additional observations from a re-analysis of the deposited data

How the results depend on the processing

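No paired analysis was possible because the table holds means of each condition only. Fits that leave out each sample, use a replicate block or another scaling were not run for this reason. The 2 intervals of Btg2, both gained, remained at 2 under every assignment and with a log2 difference of at least 1. Btg1 had 2 intervals, 2 gained and 0 lost, with the TSSs of all annotated transcripts, and the same numbers within 100 kb of its TSS. With the TSSs of protein-coding genes it had 4 intervals, 2 gained and 2 lost. With a log2 difference of at least 1 it had 5, of which 1 was lost. The first TSS of each gene, an alternative chosen after seeing the data, left 7 and 2. The count of Btg1 intervals thus depends on which genes with no Entrez identifier in the annotation, the protein-coding Gm5426 among them, may claim the far ones. None of the 9 intervals lay within a promoter distance of 1 kb, and most listed intervals did not either. With TGACTCA or TGAGTCA alone, 2 of the 7 Btg1 intervals held AP-1, against 34.1% of listed intervals. With only the middle searched 1 did, against 26.4%. With a pseudocount of 10 reads, the log2 differences of the Btg1 intervals were 1.01, 1.03, 2.15, 0.68, 1.54, -0.99 and -0.82 in order along the chromosome, with a median of 1.01. Those of Btg2 were 1.15 downstream and 1.19 upstream, with a median of 1.17. No direction was reversed. All 9 intervals had at least 16 reads in both conditions, so that filter changed no value. With no value per sample, depth sets no stated limit.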

Other observations

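The gene-poor stretch upstream of Btg1 is bounded by the TSS of Eea1, to which 6 listed intervals were assigned, 5 of them within the stretch. That at 96094066 to 96094266 rose from 3.25 to 31.4 mean normalized reads (log2 difference of 3.27). That at 95923935 to 95924135, on the other side of the TSS and outside the stretch, rose from 10.3 to 40.4 (1.97). Those at 96210061 and 96266306 were also gained (1.25 and 0.68), and those at 96173025 and 96274110 were lost (-0.98 and -1.06). The lost interval at 96274110 lies between gained ones on both sides, at 96266306 and at 96279171, the latter being the Btg1 interval at 338 kb. No explanation was tested for any of these values.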
